A study of Mus musculus with 6 samples.

Results

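The genes described here are 10 carriers, exporters and one membrane flippase that move bile acids and other organic anions through hepatocytes, read in mouse liver RNA on 6 one-colour Agilent arrays. They were chosen by name, and a probe was assigned to one of them when its transcript accession belonged to that gene in RefSeq. Of the 10 genes, 9 were matched, by 13 of 41174 probes. Slco1a1 had no matched probe and was not analysed here. Slc51a was not well above background on any array, and the other 8 genes were tested among 21059 genes and transcripts. All mice were 5 weeks old, on a mixed background of 129Sv/J, C57BL/6J and ICR. The 3 mice of one group carried a liver-specific knockout of small Maf (sMaf CKO), and the 3 of the other were wild-type controls, described by the submitters as independent RNA samples. The labels used here give neither the alleles deleted, the Cre driver nor the sex of the mice.

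Bile acids are made from cholesterol in hepatocytes, secreted across the canalicular membrane into bile, taken back up from the gut and returned to the liver by portal blood. At the sinusoidal (basolateral) membrane, the sodium-coupled carrier NTCP (Slc10a1) takes up conjugated bile acids, while the OATP carriers (Slco genes) take up bile acids, bilirubin, hormones and drugs without sodium. At the canalicular membrane the pump BSEP (Abcb11) exports bile salts, MDR3 (Abcb4) moves phosphatidylcholine into bile, and the flippase ATP8B1 (Atp8b1) maintains the lipid asymmetry of that membrane. The heteromer OSTα-OSTβ (Slc51a and Slc51b) releases bile acids back across the basolateral membrane. The nuclear receptor FXR, which bile acids activate, is known to induce Abcb11, Slc51a and Slc51b. The small Maf proteins dimerise with NRF2 and related factors on antioxidant response elements.

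In these livers the 4 tested uptake carriers had lower mean levels in sMaf CKO than in control mice, though the arrays of Slco1a4 overlapped. The canalicular genes did not differ beyond the spread of the arrays, and Slc51b had a higher mean level. None of the 8 tested genes passed the threshold, an adjusted p of 0.05 in limma's test over all 21059 genes (0 of 8, though 4 had an unadjusted p under 0.05). Over all genes, 0.541% were called, 81 higher (0.385%) and 33 lower (0.157%) in sMaf CKO liver, or 18 higher and 4 lower under quantile normalization. Of all genes, 16.8% had an unadjusted p under 0.05. For 4 of the 8 genes the levels of control and sMaf CKO mice did not overlap, 3 of them lower and 1 higher in sMaf CKO liver. Over all genes, 22.9% did not overlap (11.6% lower and 11.3% higher). The median difference of the 8 genes was -0.33 on the log2 scale, against -0.05 over all genes. Differences were negative for 11525 and positive for 9534 of all 21059 genes.

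Stretches upstream of 4 of the genes show the kind of promoter each has in RefSeq (GRCm38.p6), for the carrier with the smallest p, a second carrier, the gene with a higher level and a canalicular gene with a near-zero difference. Each is the 250 bases before the annotated start, read 5′ to 3′ on the strand of the gene. Capitals mark matches on either strand to 4 short motifs that were searched, TGACNNNGC (the core of an antioxidant response element), TGCTGA (part of a Maf recognition element), AGGTCA (a single nuclear receptor site) and GTTAAT (part of an HNF1 site). No matches overlap in these stretches.
Slc10a1, chr12:80968706-80968955, minus strand: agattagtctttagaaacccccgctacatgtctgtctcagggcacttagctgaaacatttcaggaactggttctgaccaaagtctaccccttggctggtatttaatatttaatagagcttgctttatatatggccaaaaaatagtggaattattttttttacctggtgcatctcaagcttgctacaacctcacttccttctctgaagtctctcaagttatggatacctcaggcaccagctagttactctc
Slco1b2, chr6:141629268-141629517, plus strand: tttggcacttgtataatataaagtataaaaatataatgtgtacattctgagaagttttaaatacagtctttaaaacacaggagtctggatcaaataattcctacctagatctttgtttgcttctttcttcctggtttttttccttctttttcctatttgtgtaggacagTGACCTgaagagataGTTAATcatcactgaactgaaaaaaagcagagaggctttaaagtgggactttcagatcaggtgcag
Slc51b, chr9:65422774-65423023, minus strand: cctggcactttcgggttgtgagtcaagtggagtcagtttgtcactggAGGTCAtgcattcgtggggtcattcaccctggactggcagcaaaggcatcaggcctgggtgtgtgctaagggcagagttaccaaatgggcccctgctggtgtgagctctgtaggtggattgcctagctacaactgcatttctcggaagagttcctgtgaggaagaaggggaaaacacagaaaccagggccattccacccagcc
Abcb11, chr2:69342617-69342866, minus strand: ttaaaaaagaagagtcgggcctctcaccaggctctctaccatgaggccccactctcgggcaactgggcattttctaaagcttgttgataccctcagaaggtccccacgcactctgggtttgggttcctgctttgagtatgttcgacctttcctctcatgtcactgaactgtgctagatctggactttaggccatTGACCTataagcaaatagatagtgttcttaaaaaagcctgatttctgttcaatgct
Slc10a1 has 2 annotated starts. The stretch printed, before the more upstream one, holds none of the 4 motifs, and that before the other (chr12:80968080-80968329) holds TGCTGA (bases -144 to -139, minus strand) and AGGTCA (-87 to -82). The stretch of Slco1b2 holds AGGTCA on the minus strand (bases -81 to -76 from the start) and GTTAAT (-66 to -61). The Slc51b stretch holds AGGTCA at bases -203 to -198, and the Abcb11 stretch holds it on the minus strand at bases -56 to -51. The search covered 9 of the 10 genes, with 12 starts. Atp8b1 was left out of it, so the counts of stretches do not include that gene. TGACNNNGC was in 0 of the 12 stretches, against 10.2% of 32851 stretches of the same length over all genes. AGGTCA was in 6 of the 12, against 14.0%, TGCTGA in 2 against 16.1%, and GTTAAT in 1 against 6.43%. A match is a run of letters and was not tested as a binding site.

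Slc10a1, the main carrier of conjugated bile acids from blood, had the smallest p of the 8 genes. Its log2 level relative to the array's 75th percentile was 5.41, 5.01 and 4.82 in control livers 1, 2 and 3, against 2.82, 3.67 and 3.38 in sMaf CKO livers 1, 2 and 3. The lowest control array lay more than a log2 unit above the highest sMaf CKO array, so the groups did not overlap. The sMaf CKO arrays were at 20.9%, 37.7% and 30.7% of the control mean. The means were 5.08 ± 0.30 (SD, n = 3) and 3.29 ± 0.43 (SD, n = 3), a difference of -1.79 (SE 0.29, 95% interval -2.46 to -1.12), or a 3.46-fold lower level. In limma's test this just missed the threshold (adjusted p = 0.0523), and it passed when the fit held the slide as a block (adjusted p = 0.0394). Slide 1 held replicates 1 and 2 of each genotype and slide 2 held replicate 3 of each. The difference was -1.96 within slide 1 and -1.45 within slide 2, the latter 1 array against 1.

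Of the OATP carriers, Slco2b1 and Slco1b2 had arrays that did not overlap between the genotypes, and Slco1a4 had arrays that did. Slco1b2 encodes the mouse counterpart of the human hepatic OATP1B carriers, which take up bilirubin and unconjugated bile acids. Its log2 level was 7.31, 7.72 and 8.09 in control livers 1, 2 and 3, against 6.44, 7.10 and 7.0 in sMaf CKO livers 1, 2 and 3. The highest sMaf CKO array lay just below the lowest control array. The difference was -0.86 (SE 0.29, adjusted p = 0.211 by limma), with -0.75 within slide 1 and -1.09 within slide 2. Under quantile normalization it was -0.44 (adjusted p = 0.455).

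Slco2b1, which encodes OATP2B1, a carrier of steroid sulfates and drugs, had the widest spread among sMaf CKO arrays of the 8 genes. Its log2 level was 5.24, 4.50 and 5.27 in control livers 1, 2 and 3, against 2.55, 3.70 and 4.43 in sMaf CKO livers 1, 2 and 3. As a share of the control mean, the sMaf CKO livers were at 18.2%, 40.7% and 67.2%, and the third of them lay close to control 2, which was at 70.5%. The difference was -1.44 (SE 0.48, 95% interval -2.55 to -0.33, adjusted p = 0.204 by limma), with -1.74 on slide 1 and -0.84 on slide 2 alone. It was -0.94 (adjusted p = 0.381) without sMaf CKO replicate 1 and -1.88 (adjusted p = 0.0877) without sMaf CKO replicate 3.

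Slco1a4, which encodes OATP1A4, a carrier of cardiac glycosides and bile acids that is known to respond to drug-sensing receptors and to NRF2, had the smallest difference among the uptake carriers. Its log2 level was 1.95, 2.09 and 2.47 in control livers 1, 2 and 3, against 1.56, 1.32 and 2.10 in sMaf CKO livers 1, 2 and 3. The groups overlapped, since sMaf CKO array 3 lay above 2 control arrays. The difference was -0.51 (SE 0.28, 95% interval -1.15 to 0.13, adjusted p = 0.398 by limma), and it shrank to -0.13 when arrays were scaled on hepatocyte markers. All 4 uptake carriers thus had negative differences, with a median of -1.15, and 0 of 4 passed over all genes, although 3 had an unadjusted p under 0.05.

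**Figure D1:**
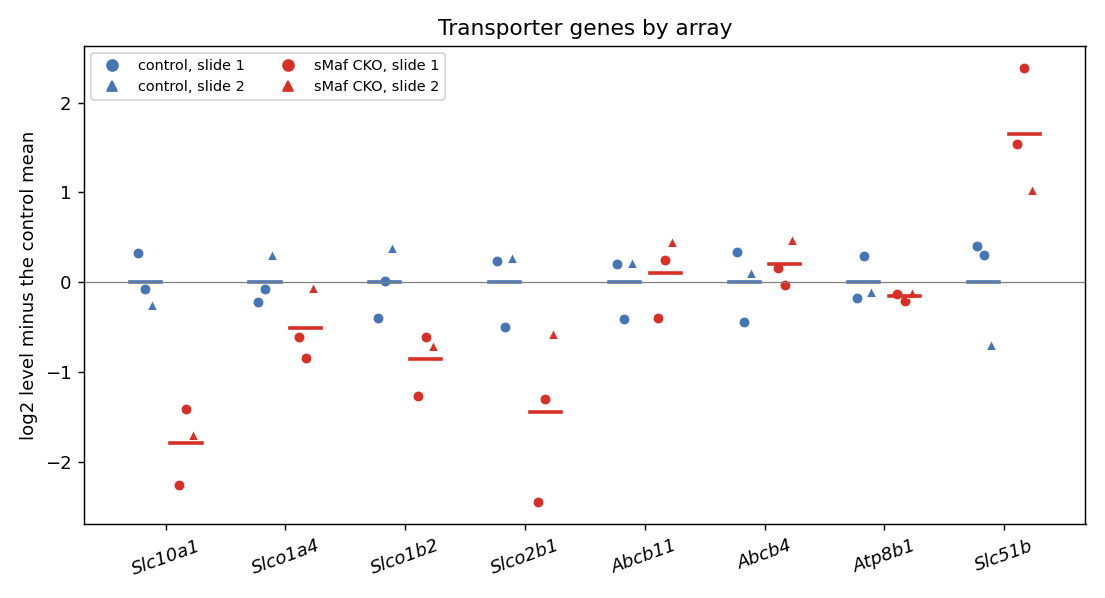
Log2 level of each tested gene on each of the 6 arrays, minus the gene's control mean (y axis, log2 units); blue marks control and red sMaf CKO arrays, circles slide 1 and triangles slide 2, and bars are group means of 3 arrays. Slc10a1, Slco1b2, Slco2b1 and Slc51b have arrays that do not overlap between the genotypes, and the canalicular genes Abcb11, Abcb4 and Atp8b1 do overlap.

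The canalicular genes had levels that overlapped between the genotypes. For Abcb11, the bile salt export pump whose loss blocks bile salt secretion, the log2 level was 7.34, 6.74 and 7.36 in control livers 1, 2 and 3, against 6.75, 7.39 and 7.59 in sMaf CKO livers 1, 2 and 3. The lowest array of each genotype was about as low as that of the other, 6.74 and 6.75. The difference was 0.10 (SE 0.30, adjusted p = 0.899 by limma), and its 95% interval, -0.60 to 0.80, spans ratios of sMaf CKO to control from 0.658 to 1.74. Within slides it was 0.03 and 0.23, and it turned negative without control replicate 2 (-0.11) or sMaf CKO replicate 3 (-0.07). The size depended on the scaling, at 0.51 under quantile normalization (adjusted p = 0.243 by limma) and 0.40 under spike-in scaling (adjusted p = 0.835). An interval of this width does not show that the levels were alike.

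Abcb4, which encodes the phosphatidylcholine floppase that protects bile ducts from bile salts, was read by 2 probes that gave opposite signs. By the brighter probe its log2 level was 6.94, 6.16 and 6.71 in control livers 1, 2 and 3, against 6.76, 6.58 and 7.07 in sMaf CKO livers 1, 2 and 3. The 3 sMaf CKO arrays all lay above control array 2 and overlapped the other controls. The difference was 0.20 (SE 0.27, 95% interval -0.44 to 0.83, adjusted p = 0.75 by limma), and -0.02 without control replicate 2. For the same probe it was 0.59 under quantile normalization (adjusted p = 0.225) and 0.50 under spike-in scaling (adjusted p = 0.815). By the other probe it was -0.14, with sMaf CKO arrays between 1.27 and 2.35 and control arrays between 1.71 and 2.23. That probe read sMaf CKO array 1 as the highest of the 6 arrays and sMaf CKO array 3 as the lowest.

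Atp8b1, the flippase whose loss in humans gives a familial cholestasis, was read by 4 probes. By the brightest of them its log2 level was -0.56, -0.10 and -0.49 in control livers 1, 2 and 3, against -0.52, -0.59 and -0.51 in sMaf CKO livers 1, 2 and 3. The sMaf CKO arrays lay close to each other and beside control arrays 1 and 3, and control array 2 stood above all of them. The difference was -0.16 (SE 0.22, 95% interval -0.66 to 0.35, adjusted p = 0.749 by limma), and it turned positive under spike-in scaling (0.14) and under scaling on hepatocyte markers (0.22). The other 3 probes gave -0.24, -0.01 and -0.32, with control array 2 the highest of the 6 arrays on each. Of these 3, 2 were well above background on 4 of 6 arrays.

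**Figure D2:**
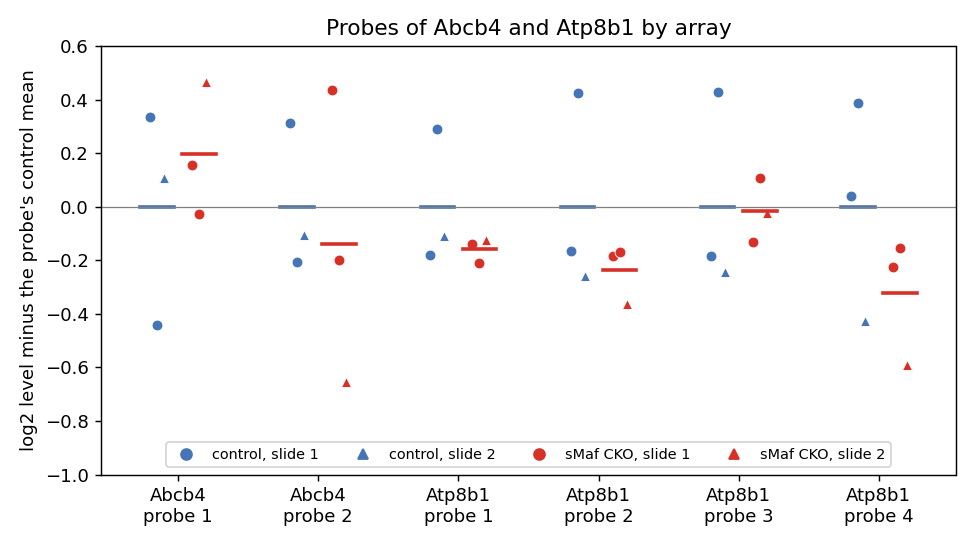
Log2 level of each kept probe of Abcb4 and Atp8b1 on each array, minus that probe's control mean (y axis, log2 units); probe 1 is the one used in the test, blue marks control and red sMaf CKO, circles slide 1 and triangles slide 2, and bars are group means of 3 arrays. The 2 Abcb4 probes differ by 0.20 and -0.14 between genotypes, and in all 4 Atp8b1 probes control array 2 is the highest point.

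For basolateral efflux, Slc51b, which encodes the β subunit of the bile acid exporter, had the largest positive difference of the 8 genes. Its log2 level was -0.97, -1.07 and -2.08 in control livers 1, 2 and 3, against 0.16, 1.02 and -0.34 in sMaf CKO livers 1, 2 and 3. The groups did not overlap, and replicate 3, on slide 2, was the lowest array of both genotypes. The sMaf CKO arrays were at 290%, 524.7% and 204% of the control mean. The means were -1.37 ± 0.61 (SD, n = 3) and 0.28 ± 0.69 (SD, n = 3), a difference of 1.65 (SE 0.43, 95% interval 0.65 to 2.65), or 3.14-fold. In limma's test it did not pass (adjusted p = 0.141). With slide as a block it did (SE 0.27, adjusted p = 0.0383), and the difference was 1.61 within slide 1 and 1.74 within slide 2. Its partner Slc51a, the α subunit, had processed signals between 2.69 and 7.53 over the 6 arrays, not well above background on any of them, so no fold is given.

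With slide as a block, 2 of the 8 genes were called, Slc10a1 lower and Slc51b higher, where 1.61% of all genes were called (0.992% higher and 0.622% lower). The other 6 had adjusted p from 0.113 (Slco2b1) to 0.869 (Abcb11) in that fit.

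**Figure D3:**
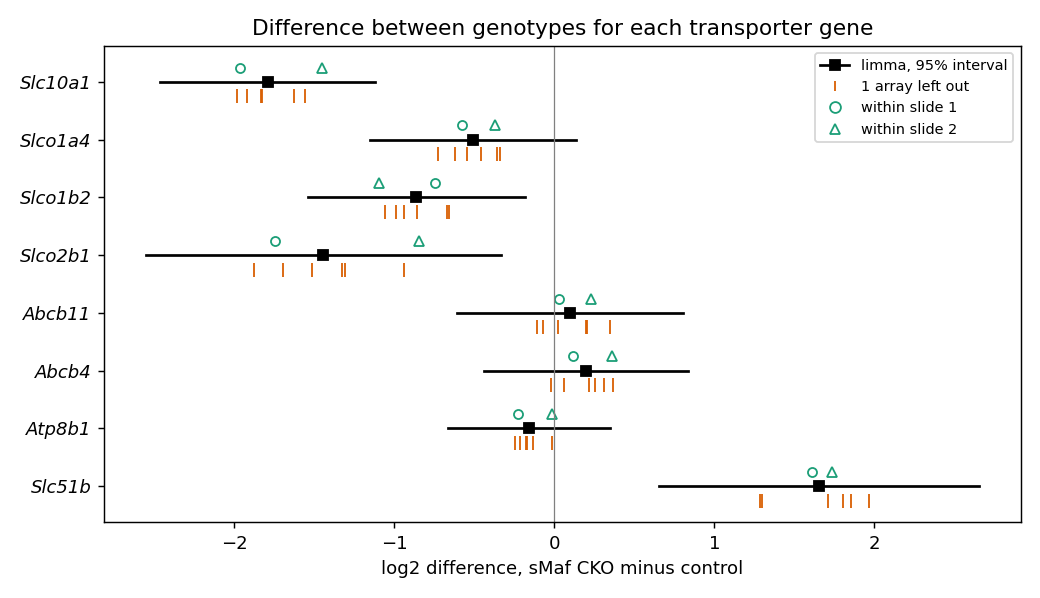
Difference in log2 level between sMaf CKO and control for each tested gene (x axis, log2 units), with limma's estimate over 6 arrays and its 95% interval (black), the estimate with each array left out in turn (orange ticks), and the difference within slide 1 (circle, 2 arrays against 2) and slide 2 (triangle, 1 against 1). The intervals of Slc10a1, Slco1b2, Slco2b1 and Slc51b do not reach 0, and those of Slco1a4 and the canalicular genes do; Atp8b1 turns positive under spike-in scaling and scaling on hepatocyte markers, which are not drawn.

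Uptake and canalicular export were also set against each other within each array, where the scaling of an array cancels. The log2 ratio of Slc10a1 to Abcb11, minus its control mean, was 0.13, 0.34 and -0.47 in control livers 1, 2 and 3, against -1.86, -1.66 and -2.15 in sMaf CKO livers 1, 2 and 3. All 3 sMaf CKO arrays lay below every control array. The difference was -1.89 (two-sided exact permutation p = 0.1, the smallest that 3 arrays against 3 allow), and the pair was chosen after the values of both genes were seen, so it is given as a description.

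Markers of hepatocytes and of other liver cells were read on the same arrays. All 15 tested hepatocyte markers were well above background on all 6 arrays (19 listed, 4 unmatched). Of them, 14 had negative differences (median -0.42), 0 passed in limma (2 at an unadjusted p under 0.05), and their summed level ranged from 4120 to 5207 times the 75th percentile in control and from 2801 to 4844 in sMaf CKO livers. Among them Apoa1, a lipoprotein component, differed by -0.57 (adjusted p = 0.294). The mean of these markers, relative to control, was -0.73, -0.38 and -0.03 in sMaf CKO livers 1, 2 and 3 and between -0.22 and 0.15 on control arrays. In whole liver, fewer cells of a type and less RNA per cell cannot be told apart. When every array was scaled on the hepatocyte markers, the difference was -1.41 for Slc10a1 (adjusted p = 0.126), -1.06 for Slco2b1, -0.48 for Slco1b2 and 2.03 for Slc51b (adjusted p = 0.166), and 0 of all genes passed (4159 at an unadjusted p under 0.05). That scaling raised the median of all genes from -0.05 to 0.33. Abcb11 and Abcb4 were at 0.48 and 0.58 under it.

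Bile duct and ductular cells are known to express SLC51 and SLC10 carriers too. Of 13 tested markers of these cells (15 listed, with Sctr not above background), 12 had positive differences (median 0.42), 0 passed in limma (4 at an unadjusted p under 0.05), and their summed level was 15.5 to 20 in control and 26.3 to 61.0 in sMaf CKO livers. The sum was highest in sMaf CKO liver 1, where most of it came from Spp1 (level 5.58), named after its level was seen. Spp1 differed by 1.03 (adjusted p = 0.38 by limma) with arrays that overlapped. The best-ranked markers were the tight junction gene Cldn7 (1.48, adjusted p = 0.128) and the keratin Krt23 (1.67, adjusted p = 0.143). In sMaf CKO liver 2, where Slc51b was highest, Krt23 was at its highest (3.32), while the defining duct markers Krt19, Krt7 and Sox9, picked after their values were seen, were at their lowest among the sMaf CKO livers (-1.29, -1.23 and -1.93). Slc10a2, the sodium-coupled bile acid carrier of cholangiocytes and ileum, differed by 1.43 (SE 0.67, adjusted p = 0.332) with arrays that overlapped. Macrophage markers had 13 of 14 positive differences (median 0.81), with 9 at an unadjusted p under 0.05. In limma 2 were called higher, Trem2 and Gpnmb, where 0.385% of all genes were. Trem2, a lipid-sensing receptor well above background on 2 of 3 control arrays, differed by 4.18 (adjusted p = 0.0105). Gpnmb was well above background on 0 control and 3 sMaf CKO arrays. It passed the filter only through the group where it was high, so no fold or p is given. The summed level of the 14 macrophage markers was 119.8 to 178.3 in control and 223.9 to 438.3 in sMaf CKO livers. In sMaf CKO liver 1 most of that sum came from Marco (level 7.69) and Cd5l (7.11), named after their levels were seen. They differed by 3.73 (adjusted p = 0.0859 by limma) and 0.88 (adjusted p = 0.173). Stellate cell and fibroblast markers were positive in 12 of 13 (median 0.47, 0 passed, 5 at an unadjusted p under 0.05; summed level 104.1 to 128.5 against 153.3 to 185.6), led by Lum (1.26, adjusted p = 0.0937) and Reln (0.84, adjusted p = 0.109). The part of these markers in the transporter differences was not tested.

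Endothelial markers had 5 of 11 positive differences (median -0.01, 0 passed and 0 at an unadjusted p under 0.05; summed level 67.8 to 88.5 against 61.7 to 79.4), with Kdr at -0.56 and Stab2 at -0.46. Lymphocyte and neutrophil markers had 7 of 12 (median 0.18, likewise 0 and 0, summed level 5.28 to 7.28 against 6.61 to 10.02). S100a9 was at 0.49 and Cd8a at 1.30, neither past limma's test. The Cd8a difference came from sMaf CKO liver 1 (-0.76). Livers 2 and 3 of that genotype (-3.98 and -3.82) lay within the control range, -4.63 to -3.51.

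Other uptake carriers of the liver, for organic anions, cations and phosphate, were read on the same arrays. Of 16 tested, 14 had negative differences (median -0.69), and 0 passed in limma (6 at an unadjusted p under 0.05). The arrays of 6 did not overlap, all lower, where 11.6% of all genes did not overlap and were lower. The smallest p values were those of Slc17a2 (-1.07, adjusted p = 0.0932) and Slc17a1 (-1.19, adjusted p = 0.13), both anion and phosphate carriers of the SLC17 family. Of 7 tested other SLC10 and SLCO genes, 5 had positive differences (median 0.45), 0 passed in limma and 1 had an unadjusted p under 0.05, Slco3a1 (0.66, adjusted p = 0.247). Of the 17 genes on that list, 6 were not above background on any array.

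Among other ABC exporters and the flippase partners, differences ran both ways and none passed in limma (0 of 18, with 10 at an unadjusted p under 0.05), with a median of -0.21. Abcc6, an exporter of hepatocytes, differed by -1.49 (SE 0.24, adjusted p = 0.0523). Abcc3, which exports conjugates and bile acids back to blood, differed by -1.64 (SE 0.28, adjusted p = 0.0533). The sterol exporter Abcg8 differed by -1.91 (adjusted p = 0.0555). Abcc6, Abcc3 and Abcg8 were called lower in limma's fit with the slide block (adjusted p = 0.0293, 0.0445 and 0.047). In that fit 0.622% of all genes were called lower. Abcc4, which like OSTα-OSTβ is a basolateral exporter, differed by 0.89 (adjusted p = 0.238), and the canalicular exporter Abcc2 by -0.22 (adjusted p = 0.71). Tmem30a, the subunit that P4 flippases such as ATP8B1 need, differed by -0.62 (adjusted p = 0.285). Abcg8, Abcc2, Abcc4 and Tmem30a were picked after their values were seen, for their roles beside the transporters.

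Of 20 genes of bile acid synthesis and conjugation, 18 had negative differences (median -0.60) and 11 had an unadjusted p under 0.05. In limma 2 were called lower and 0 higher, where 0.157% of all genes were called lower and 0.385% higher. The 2 called lower were Cyp7b1, the oxysterol hydroxylase of the alternative route (-3.75, SE 0.32, adjusted p = 0.0117), and Akr1d1, a steroid reductase of both routes (-1.94, SE 0.26, adjusted p = 0.0382). The arrays of 12 of the 20 did not overlap, all with lower levels in sMaf CKO liver, against 11.6% of all genes. The list of receptors and regulators had 19 of 26 negative differences (median -0.31, 0 passed, 6 at an unadjusted p under 0.05), led by the xenobiotic receptor CAR, Nr1i3 (-2.16, SE 0.49, adjusted p = 0.107), and Ppara, a fatty acid receptor (-1.03, SE 0.25, adjusted p = 0.116). In the FXR feedback loop, picked for its role after the values were seen, FXR itself (Nr1h4) differed by -0.43 (adjusted p = 0.504), its target Nr0b2, which encodes SHP, by -0.71 (adjusted p = 0.281), Cyp7a1, the rate-limiting enzyme of the classical route, by -0.43 (adjusted p = 0.538) and Cyp8b1, which sets the share of cholic acid, by -1.71 (adjusted p = 0.176). Abcb11 and Slc51b, both FXR targets, stood at 0.10 and 1.65 on the same scale. Genes of the canalicular scaffold and tight junctions had 10 of 17 positive differences (median 0.14, 0 passed, 5 at an unadjusted p under 0.05). Their smallest p values were those of Rdx (-0.63, adjusted p = 0.196), which encodes radixin, an anchor of the canalicular membrane, and Slc9a3r1 (-0.64, adjusted p = 0.207), which encodes a scaffold that radixin binds.

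**Figure D4:**
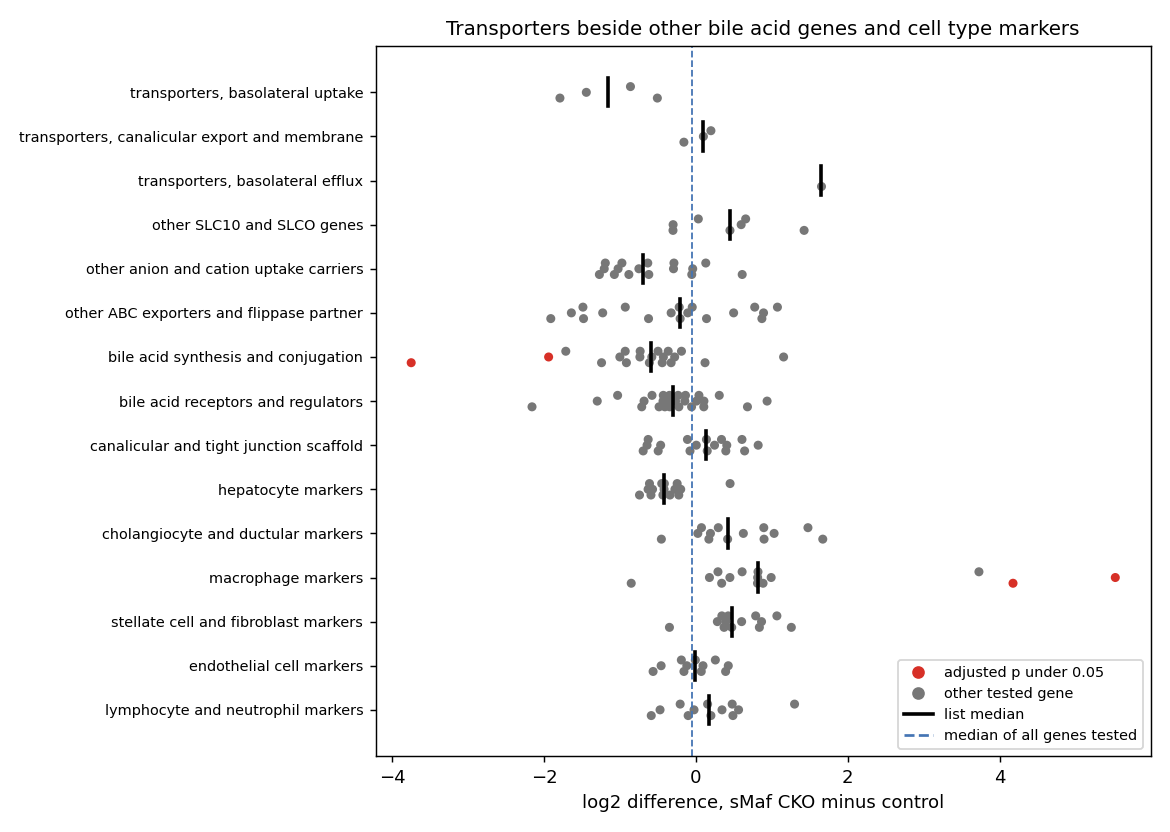
Difference in log2 level between sMaf CKO and control (x axis, log2 units) for each tested gene of the transporter groups, other bile acid genes and cell type markers, with list medians (black bars), genes past an adjusted p of 0.05 in red and the median of all genes tested dashed. The 4 uptake carriers lie between -1.79 and -0.51, and the red points are Cyp7b1, Akr1d1, Trem2 and Gpnmb, the last of which is drawn at its fitted value although its control arrays give only a bound.

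As a check of the labels, Mafg differed by -4.69 (SE 0.79, adjusted p = 0.0533, and 0.0207 under the slide block), while Maff (0.15) and Mafk (0.21) did not pass; whether their probes lie in a deleted part is not known. The 75th percentile of the signal ran from 483.4 to 609.3 on control and from 484.4 to 960.5 on sMaf CKO arrays, with 58.0% to 73.6% of probes well above background. Across genes, pairs of arrays correlated at r = 0.97 to 0.984 within a genotype and at r = 0.953 to 0.98 between genotypes.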

How the data were processed

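Liver RNA (500 ng per sample) was labelled with Cy3 and read on 1 array per mouse, per the labels' protocols. Per the file headers, the authors extracted spot intensities with Agilent Feature Extraction 10.7.3.1 (protocol GE1_107_Sep09), and the deposited intensity is background-subtracted and detrended within the array. The header names mm9 for the design, whereas gene names and upstream sequences came from RefSeq on GRCm38.p6, which named 26690 of 41174 probes. The deposited value table holds log2 values that matched the levels computed here, centred on each probe's median over the 6 arrays (r of at least 0.999985 on each array), with no scale, centring or direction left unknown, and its column medians ran from -0.11 to 0.09.

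A level is the log2 intensity minus the array's 75th percentile over non-control probes. Outlier spots were left out, which removed a value in 47 tested genes and in none of the 8 transporter genes. Probes well above background on at least 3 arrays were kept, with the brightest kept probe for each gene. No spot was saturated. The genotypes were tested in R 4.3.3 by limma 3.58.1 over all genes, with Benjamini-Hochberg adjustment and a threshold of 0.05. The fit was run on simulated arrays with known changes and independent noise for each gene. These held no shift of slide or scaling shared over genes, so they do not test the fit against such shifts. Named genes were the transporters, and up to 4 called members or else the 2 smallest p values of each other list. One gene that this rule names is not reported here. The transporters, lists and alternatives were chosen with earlier results of these data known. The number of arrays limits the precision. Alternatives were other background corrections, scalings, filters, probe rules, models and thresholds, each array left out, and, added after seeing the data, scaling on hepatocyte markers.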

Additional observations from a re-analysis of the deposited data

How the results depend on the processing

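The sign of the difference held under all 21 alternatives for Slc10a1 (-1.98 to -1.41), Slco2b1 (-1.88 to -0.84), Slco1b2 (-1.09 to -0.44), Slco1a4 (-0.81 to -0.13) and Slc51b (1.28 to 2.30). The sign turned for Abcb11 (-0.11 to 0.51) without control replicate 2 (-0.11) or sMaf CKO replicate 3 (-0.07). For Abcb4 (-0.024 to 0.59) it turned without control replicate 2 (-0.024). For Atp8b1 (-0.25 to 0.22) it turned under spike-in scaling (0.14) and hepatocyte marker scaling (0.22). Abcb11 and Abcb4 were highest under quantile normalization. Spike-in scaling raised the median of all genes by 0.301. Slc10a1 passed in 6 of 20 tested alternatives (adjusted p from 0.0211 to 0.375) and Slc51b in 3 of 20 (0.0242 to 0.418), and the other 6 genes passed in none. Thus 1 transporter was called lower with normexp, median scaling, the filter on all 6 arrays, the slide block, array weights, and trend and robust eBayes, and 1 higher with the replicate block, the slide block and array weights. Leaving out any array gave 0 called in either direction, with Abcb11 at most at 0.35 and Abcb4 at 0.37.

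Over all genes, 81 higher and 33 lower became 18 and 4 (quantile), 171 and 81 (median scaling), 9 and 3 (spike-in), 0 and 0 (hepatocyte marker scaling), 0 and 1 (no filter on dim probes, with 3129 at an unadjusted p under 0.05), 168 and 99 (filter on all 6 arrays), 193 and 98 (replicate block), 209 and 131 (slide block), 110 and 86 (within slide 1), 610 and 531 (array weights), 204 and 104 (trend and robust), and 2 and 1 (adjusted p under 0.01). With an array left out they ran from 2 to 147 and from 1 to 151. Deviations of same-numbered arrays correlated at 0.06, 0.17 and 0.42, not all above 0.1, so the numbers were not taken as pairs; under the replicate block Slc51b had an adjusted p of 0.0479. The causes of these moves were not tested.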
